A study of Sus scrofa with 11 samples.

Results

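The genes described are 38 named lysosomal genes of the pig: proteases, enzymes that break down lipids and glycans, the cofactors of those enzymes, proteins of the lysosomal membrane, progranulin and the transcription factor TFEB. They were named by gene symbol, with earlier results of these data known. Of these, 37 were found among the 30376 genes with expression values, and the glycan hydrolase gene NAGLU was not analysed here. The 37 genes comprised 12 proteases, 15 lipid and glycan hydrolases, 2 cofactors, 6 membrane proteins, and GRN together with TFEB.

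RNA was sequenced from full-thickness excisional wounds on the back of 2 female Yucatan minipigs, collected by biopsy punch on day 10 after wounding, with 1 library per wound. The diabetic group was 7 wounds of 1 minipig that received intravenous streptozotocin, a toxin of the insulin-producing beta cells, at 6 months of age, and was then kept for 60 days before wounding with insulin that ended before the wounds were made. The non-diabetic group was 4 wounds of 1 minipig that had the same surgery and dressings, and whose age the sources used here do not give. With 1 animal in each group, diabetes and the animal cannot be told apart, and every p-value below rests on the spread between wounds within an animal. A bulk punch holds all cell types of the wound, and fewer cells of a type cannot be told apart from less RNA per cell.

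The lysosome is the acidic compartment in which cells break down material taken up from outside or delivered by autophagy. Soluble hydrolases reach it through mannose 6-phosphate receptors and work at the low pH made by a proton pump, the V-ATPase, while heavily glycosylated membrane proteins shield and organise its limiting membrane. Many of these genes share a short E-box element in their promoters that binds TFEB and its relatives. In skin wounds, macrophages that clear dead cells and matrix debris are particularly rich in lysosomes.

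The E-box was looked for in the pig sequence as TCACGTG on either strand, from 250 bases before to 50 bases after the annotated start of each gene (Sscrofa11.1, RefSeq). It was present in 8 of the 37 genes (21.6%), against 814 of 19545 protein-coding genes (4.16%). The looser core CACGTG, which every TCACGTG holds, was present in 10 of 37 (27.0%) against 7.92%. The sites are shown because they are the sequence feature these genes are known for, each as 30 bases read 5′ to 3′ on the strand of its gene, with CACGTG and any T before it or A after it in capitals. LAMP1 held a further match at the edge of its window, which is not shown.
CTSA (chr17:48082452-48082481, plus strand): gatgccagagcaCACGTGActcgagataca
HEXA, upstream site (chr7:60878428-60878457, plus strand): gccgtctctggTCACGTGAcccgccaattg
HEXA, site nearer the start (chr7:60878478-60878507, plus strand): tgaccatggcgTCACGTGActcggccagct
GUSB (chr3:16671968-16671997, plus strand): ggggaagggggaCACGTGActcacgccccg
IDUA (chr8:334579-334608, plus strand): cgcgccggccgTCACGTGgcacgcgacccg
NEU1 (chr7:23958673-23958702, minus strand): gtgctgaagggTCACGTGAggagttacgcg
LAMP1, upstream site (chr11:78600629-78600658, plus strand): attcacggaggTCACGTGgcggcgcgggcg
LAMP1, site nearer the start (chr11:78600658-78600687, plus strand): gcagcgcggccTCACGTGAcgggcgccgcc
LAMP2 (chrX:98623967-98623996, minus strand): tctggccccctTCACGTGcggagattggct
MCOLN1 (chr2:71613305-71613334, minus strand): aaccgtgtgggTCACGTGActgggggcgcg

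By class, TCACGTG was present in 1 of 12 proteases, 4 of 15 lipid and glycan hydrolases and 3 of 6 membrane proteins. The protease gene CPQ, whose level differed most between the groups (below), held neither motif. The 250 bases before its annotated start are shown for comparison with the sites above, with no part marked.
CPQ (chr4:39855960-39856209, minus strand): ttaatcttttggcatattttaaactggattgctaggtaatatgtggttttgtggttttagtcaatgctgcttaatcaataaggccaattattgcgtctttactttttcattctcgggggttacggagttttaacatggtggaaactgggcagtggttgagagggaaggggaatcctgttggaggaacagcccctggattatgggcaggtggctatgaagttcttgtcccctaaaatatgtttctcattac

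The values are FPKM, reads per kilobase of gene length divided by a number for each library. Levels can thus be set side by side between genes. The number per library was 0.854 to 1.18 times its reads on genes. It was thus not simply those reads, and the sources used here do not say how it was set. Between 28314785 and 40168372 reads per library fell on genes, and 1 read was worth 0.0112 to 0.0194 FPKM on a gene of 2 kb. Diabetic replicate 4 and non-diabetic replicate 1 stood apart from the other wounds on the first principal component (44.5% of the variance). Their summed neutrophil markers (46.2 and 301 FPKM) and keratinocyte markers (52.2 and 308 FPKM) lay below those of every other wound, which had at least 3808 and 1760 FPKM. Diabetic replicate 3 held 1827 FPKM of skeletal muscle markers, against at most 5.14 in any other wound.

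The lysosomal genes were abundant in both groups. Together they made up 0.773% to 1.31% of all FPKM in the diabetic wounds and 0.764% to 1.08% in the non-diabetic wounds, ranges that overlapped. CTSB, the cysteine protease cathepsin B, had the highest mean over the 11 wounds (628 FPKM), followed by PSAP, CD63 and CTSH with 400, 394 and 383 FPKM, whose order is within the spread between wounds. CTSD, GRN, LGMN, CTSZ, LAMP1 and HEXA came next, between 329 and 113 FPKM. LAMP3, known from mature dendritic cells, was the least abundant, with 10 to 183 reads per wound and a mean of 0.637 FPKM. The median within-group SD of the 37 genes was 0.35 on the log2 scale, against 0.25 over all genes tested. Diabetic replicate 7 was the highest wound for 16 of the 37 genes, while diabetic replicate 1 and non-diabetic replicate 3 were each the lowest for 14.

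**Figure D1:**
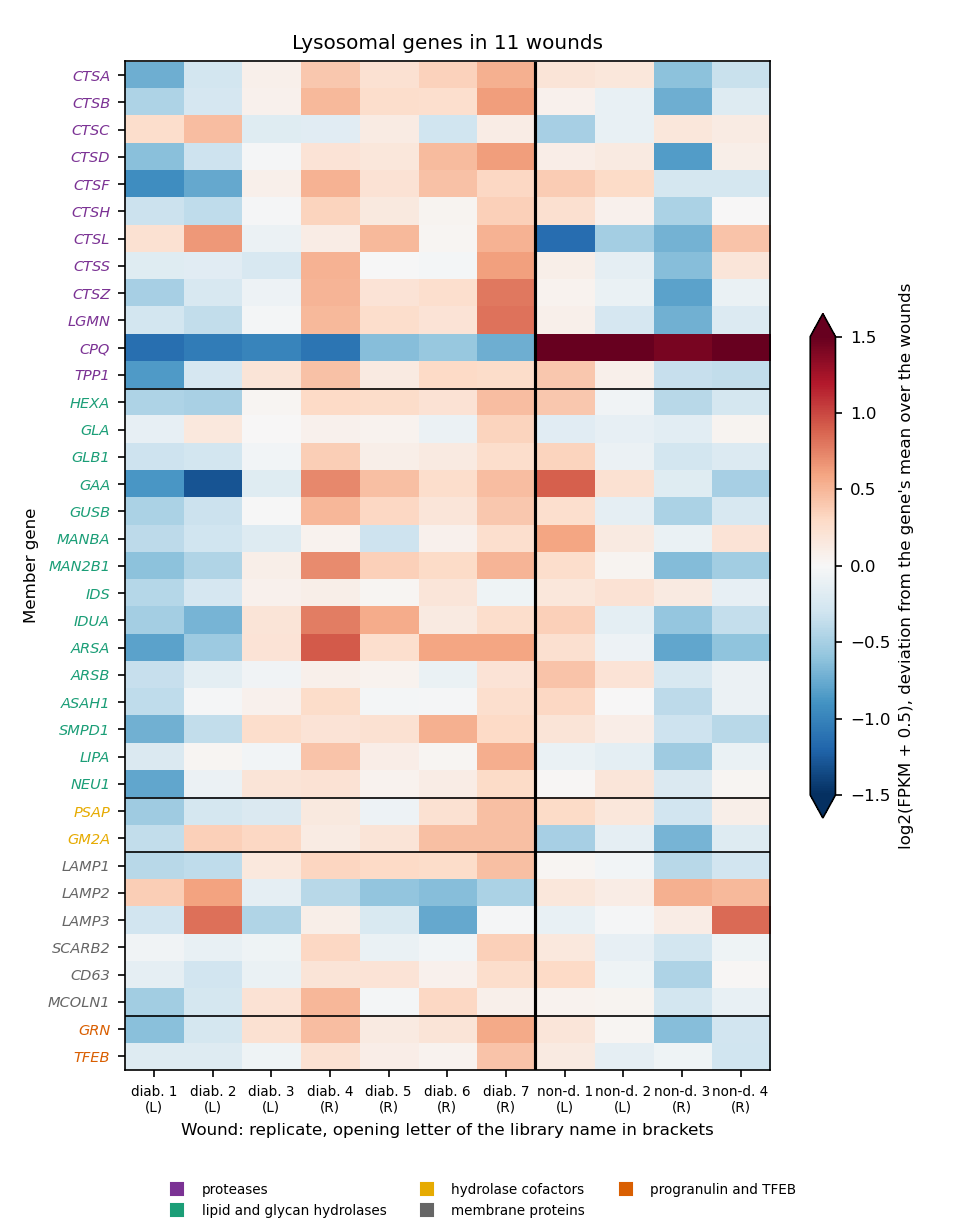
Level of each of the 37 lysosomal genes (rows, coloured by class) in each of the 11 wounds (columns, with the opening letter of the library name in brackets), as log2(FPKM + 0.5) minus the mean of that gene over the wounds, with the colour scale ending at 1.5 in each direction. Only CPQ is low in all 7 diabetic wounds and high in all 4 non-diabetic wounds, and most other rows are low in diabetic replicate 1 or non-diabetic replicate 3 and high in diabetic replicate 7.

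All 37 genes passed the filter on low values (0.5 FPKM in at least 4 wounds). In a comparison across 13956 genes (limma on log2(FPKM + 0.5), Benjamini-Hochberg adjustment), a gene was called where the adjusted p was under 0.05 and the log2 fold change over 0.5 in size. None of the 37 was called higher in diabetic wounds and 1 (2.70%), CPQ, was called lower, where 3.00% of all genes tested were called, 1.35% higher and 1.66% lower. At an unadjusted p under 0.05 there were 4 of 37 (CPQ, CTSL, LIPA and GM2A), against 18.4% of all genes. Of the 37 log2 fold changes, 27 were above 0, with a median of 0.13 against 0.014 over all genes. The shares called and past the unadjusted threshold were thus no higher among the lysosomal genes than among all genes.

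**Figure D2:**
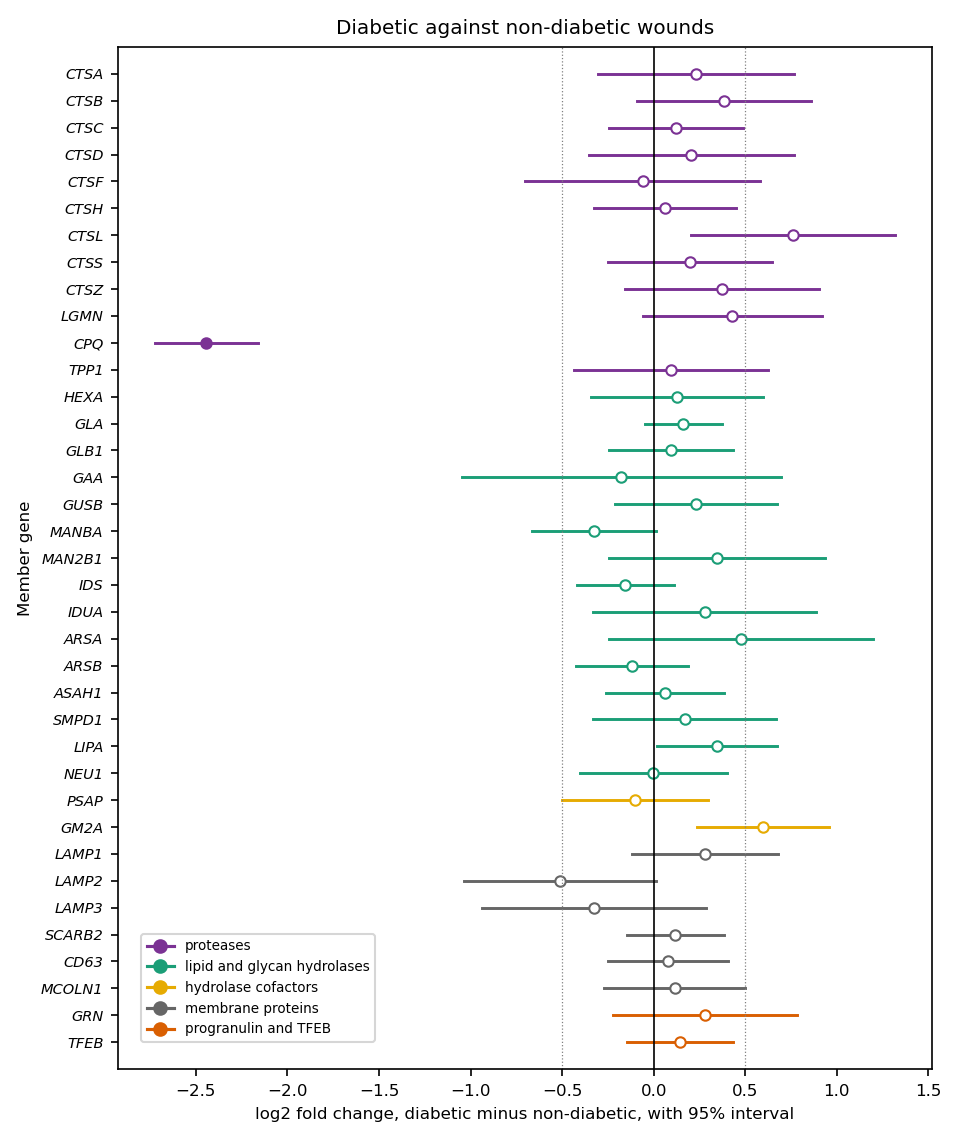
Log2 fold change of each lysosomal gene, diabetic minus non-diabetic, with its 95% interval from limma, coloured by class (filled point, called; open point, not called; dotted lines at a change of 0.5 in either direction). CPQ lies at -2.44 with an interval far from 0, and of the other genes only CTSL, LIPA and GM2A have intervals that do not cover 0.

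CPQ, which encodes carboxypeptidase Q, a metallopeptidase that acts on small peptides, was lower in the diabetic wounds. The gene lies on chromosome 4 from 39492663 to 39855959 on the minus strand. Its level in the 7 diabetic wounds was 2.62 FPKM at the lowest, 2.94 at the median and 4.11 at the highest, and in the 4 non-diabetic wounds 21.7, 19.6, 17.9 and 19.4 FPKM. The groups did not overlap, and the spread within each group was small beside the gap between them. Means were 3.24 ± 0.615 FPKM (SD, n = 7) and 19.7 ± 1.56 FPKM (SD, n = 4). On the log2(FPKM + 0.5) scale the change was -2.44 (standard error, SE, 0.13, 95% interval -2.72 to -2.16, adjusted p = 3.15e-06, limma), or 5.44-fold lower. CPQ was the only one of the 37 genes whose groups did not overlap, against 5.65% of all genes tested (2.96% with the diabetic wounds lower), and it ranked 2nd of 13956 by p. Without the 2 wounds that stood apart the log2 fold change was -2.36 (adjusted p = 9.47e-05, limma).

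**Figure D3:**
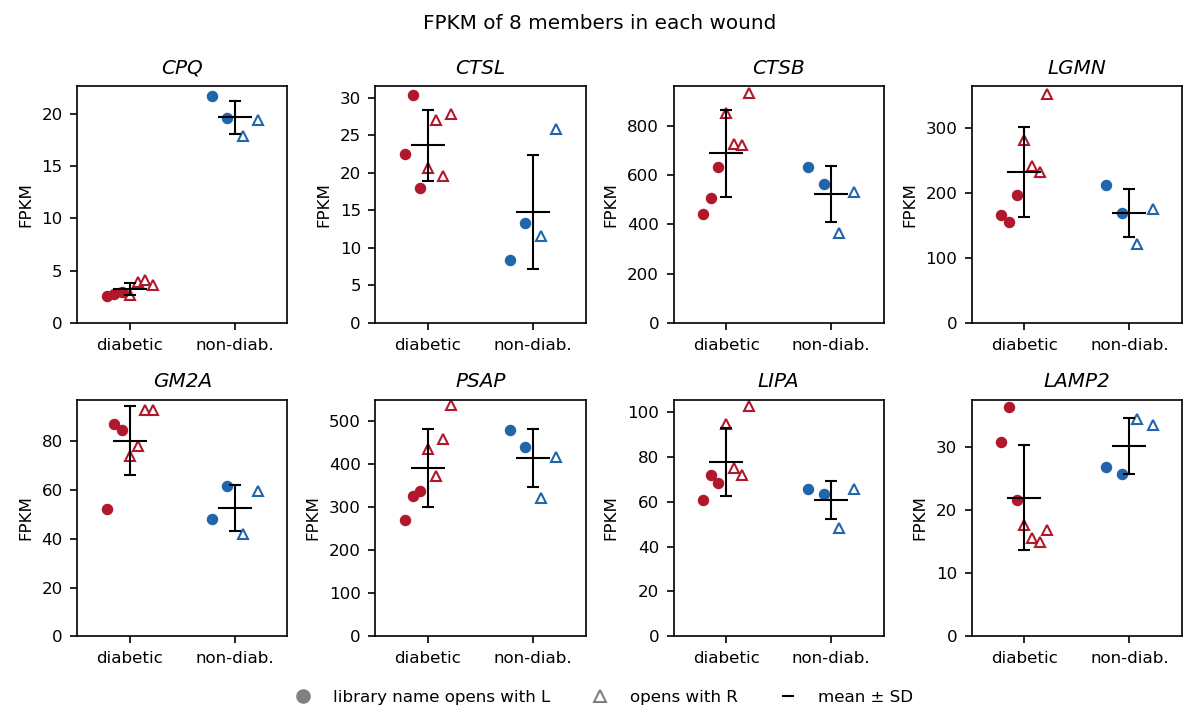
FPKM of 8 lysosomal genes in each wound, with the mean and SD of each group (filled circles, library names that open with L; open triangles, names that open with R). CPQ separates the groups without overlap, GM2A and CTSL overlap through 1 wound of a group each, and in LAMP2 the R-named diabetic wounds lie below all others.

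Among the other proteases, CTSL (cathepsin L, an endopeptidase) had the largest change that was not called. It had 17.9, 22.5 and 30.4 FPKM at the lowest, median and highest diabetic wound, and 8.40, 13.3, 11.6 and 25.9 FPKM in the non-diabetic wounds. Non-diabetic replicate 4 reached into the diabetic range and the other 3 lay below it. The log2 fold change was 0.76 (SE 0.25, adjusted p = 0.13, limma), and without non-diabetic replicate 4 it was 1.06 with an adjusted p of 0.0195, so 1 wound decided the call. Another gene listed as CTSV on chromosome 10 is described in the annotation as cathepsin L-like, and had 118 and 116 FPKM. Reads that fit both genes could have been split between them.

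The remaining proteases had small changes with wide intervals. CTSB had 441, 723 and 933 FPKM at the lowest, median and highest diabetic wound and 633, 563, 364 and 530 FPKM in the non-diabetic wounds, so that 5 diabetic wounds lay above all non-diabetic wounds, diabetic replicate 3 by under 1 FPKM, and the other 2 overlapped with them. Its log2 fold change was 0.38 (SE 0.22, adjusted p = 0.387, limma). LGMN, the asparaginyl endopeptidase legumain, had 4 diabetic wounds above all non-diabetic wounds, with means of 233 ± 69.0 FPKM (SD, n = 7) and 170 ± 36.8 FPKM (SD, n = 4) and a log2 fold change of 0.43 (adjusted p = 0.339, limma). CTSZ (cathepsin Z, a carboxypeptidase) stood at 0.37, CTSA (the serine carboxypeptidase that also protects GLB1 and NEU1) at 0.23, CTSD (the aspartic protease cathepsin D) at 0.21 and CTSS (cathepsin S, which trims the invariant chain of MHC class II) at 0.20. Smaller still were CTSC (the dipeptidyl peptidase that activates granule serine proteases) at 0.12, TPP1 (tripeptidyl peptidase) at 0.10, CTSH (cathepsin H, an aminopeptidase) at 0.06 and CTSF (cathepsin F) at -0.06. Their adjusted p-values in limma lay between 0.457 and 0.943. CTSD in non-diabetic replicate 3 (177 FPKM) was far below the other 3 non-diabetic wounds (336 to 347 FPKM).

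None of the 15 lipid and glycan hydrolases was called. LIPA, the acid lipase that frees cholesterol and fatty acids from lipoprotein lipids, came closest. It had 60.5, 71.8 and 103 FPKM at the lowest, median and highest diabetic wound and 65.6, 63.2, 48.2 and 65.4 FPKM in the non-diabetic wounds. Only diabetic replicate 1 fell within the non-diabetic range. Its log2 fold change of 0.35 (SE 0.15, adjusted p = 0.242, limma) was below the size set for a call. ARSA, which removes sulfate from sulfatides, had the largest positive change of the class, 0.48 (SE 0.33, adjusted p = 0.486, limma), with 13.5 to 45.9 FPKM in diabetic and 13.7 to 28.5 FPKM in non-diabetic wounds so that the non-diabetic range lay within the diabetic range.

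The enzymes of glycoprotein and glycan breakdown lay on both sides of 0. MAN2B1 (alpha-mannosidase) stood at 0.34 and MANBA (beta-mannosidase, the next step on the same chains) at -0.33, the lowest of the class (adjusted p = 0.550 and 0.291, limma). MANBA had 8.22, 9.49 and 13.1 FPKM at the lowest, median and highest diabetic wound and 16.7, 12.04, 10.2 and 12.7 FPKM in the non-diabetic wounds, and the groups overlapped. Of the enzymes that degrade glycosaminoglycans, IDUA stood at 0.28, GUSB (beta-glucuronidase) at 0.23, ARSB at -0.12 and IDS at -0.15. GAA, which degrades glycogen in the lysosome, varied most of the class within a group, 4.08-fold from 38.2 to 156 FPKM among diabetic wounds and 2.65-fold among non-diabetic wounds, and its interval ran from -1.05 to 0.69. The sphingolipid enzymes SMPD1 (acid sphingomyelinase) and ASAH1 (acid ceramidase) stood at 0.17 and 0.06. GLA (alpha-galactosidase) was at 0.16, HEXA (the alpha subunit of beta-hexosaminidase A) at 0.13, GLB1 (beta-galactosidase) at 0.09 and the sialidase NEU1 at -0.0016. GLA had the narrowest interval of the 37 genes, -0.05 to 0.37.

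The 2 cofactors had fitted changes of opposite sign, and neither was called. GM2A, the activator that presents GM2 ganglioside to beta-hexosaminidase A, lies on chromosome 16 from 71742090 to 71767872. It had 52.4, 84.6 and 93.1 FPKM at the lowest, median and highest diabetic wound, and 48.0, 61.7, 41.9 and 59.5 FPKM in the non-diabetic wounds. Diabetic replicate 1 was the only wound of its group within the non-diabetic range, and the other 6 lay above it. The log2 fold change was 0.60 (SE 0.16, 95% interval 0.24 to 0.96, adjusted p = 0.0729, limma). It was called without diabetic replicate 1, with 0.70 and an adjusted p of 0.0131. PSAP, the precursor of the saposins that assist sphingolipid enzymes, had 271 to 538 FPKM in diabetic and 321 to 479 FPKM in non-diabetic wounds and a log2 fold change of -0.10 (95% interval -0.50 to 0.30, limma).

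Of the 6 membrane proteins, none was called. LAMP2, which takes part in autophagosome fusion and chaperone-mediated autophagy, had the lowest log2 fold change among them, -0.51 (SE 0.24, adjusted p = 0.284, limma). It had 15.05, 17.7 and 36.4 FPKM at the lowest, median and highest diabetic wound and 26.9, 25.8, 34.6 and 33.6 FPKM in the non-diabetic wounds. Diabetic replicate 1 lay among the non-diabetic wounds, diabetic replicate 2 above them and the other 5 below them. LAMP1, the related major glycoprotein of the lysosomal membrane, stood at 0.28 (adjusted p = 0.457, limma). SCARB2, a membrane protein also known as LIMP-2, stood at 0.12, the calcium channel MCOLN1 at 0.11, the tetraspanin CD63 at 0.08 and LAMP3 at -0.33. GRN, which encodes progranulin, a protein that supports lysosomal enzymes, had a log2 fold change of 0.28 (adjusted p = 0.572, limma). TFEB, which drives lysosomal genes, stood at 0.14 (adjusted p = 0.623, limma). It had 5.99 to 9.50 FPKM in diabetic and 5.52 to 7.63 FPKM in non-diabetic wounds.

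Proteases and lipid and glycan hydrolases were then compared as classes. The median log2 fold change was 0.20 for the 12 proteases, of which 10 were above 0, and 0.13 for the 15 hydrolases, of which 10 were above 0. The medians differed by 0.072, or by 0.077 without CPQ, and this difference was not tested. When values were quantile normalised, the class medians were 0.047 and 0.030, against -0.018 over all genes. With every library rescaled to the same sum they were 0.13 and 0.055, against -0.050 over all genes. Summed over the class, the proteases had 1519 to 3058 FPKM in diabetic and 1319 to 2203 FPKM in non-diabetic wounds, and the hydrolases 467 to 934 and 503 to 858 FPKM. The ratio of the sums was 3.16 ± 0.220 (SD, n = 7) and 2.95 ± 0.459 (SD, n = 4), and the ranges overlapped.

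**Figure D4:**
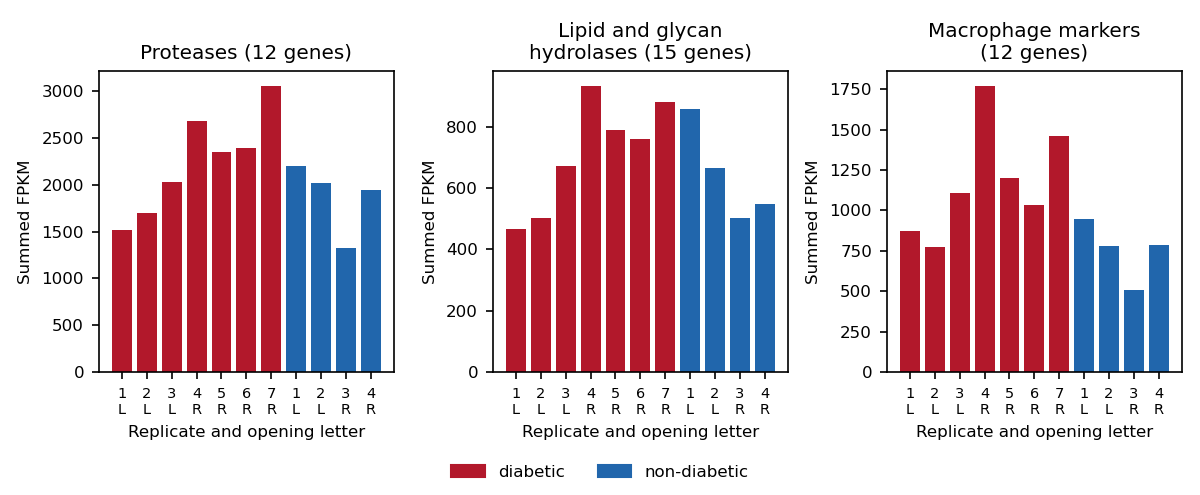
Summed FPKM of the 12 proteases, the 15 lipid and glycan hydrolases and 12 macrophage markers in each wound (bars), labelled by replicate and by the opening letter of the library name. In the protease and hydrolase panels all 4 R-named diabetic bars stand above the 3 L-named ones, and in all 3 panels non-diabetic replicate 3 is the lowest non-diabetic bar.

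Library names open with L or R, letters whose meaning the sources used here do not give. The endings of the names, also unexplained, were the same within an animal and differed between the 2 animals. What they stand for thus cannot be told apart from the animal. The lysosomal genes differed with the opening letter in opposite ways in the 2 animals. In the diabetic animal the 3 L-named wounds had summed levels of 2994 to 3987 FPKM over the 37 genes and the 4 R-named wounds 4532 to 5655 FPKM, without overlap. In the non-diabetic animal the 2 L-named wounds had 4006 and 4556 FPKM and the 2 R-named wounds 2800 and 3750 FPKM, again without overlap but in the other order. As a share of all FPKM, the letters did not overlap in the diabetic animal (0.773% to 0.948% in L-named and 0.986% to 1.31% in R-named wounds). In the non-diabetic animal these shares did overlap, with 1.08% and 0.971% in L-named and 0.764% and 0.985% in R-named wounds. The mean of the R-named wounds exceeded that of the L-named wounds for 34 of the 37 genes in the diabetic animal and for 5 of 37 in the non-diabetic animal. Of all 13956 genes tested, it did so for 6839 in the diabetic and 7019 in the non-diabetic animal. The number each library was divided by also differed with the letter. Relative to the reads on genes it was 0.978 to 1.18 in L-named and 0.866 to 0.928 in R-named diabetic wounds. In the non-diabetic wounds it was 0.854 and 0.952 in L-named and 1.06 in both R-named ones. What part this scaling has in the difference between the letters was not tested.

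Fitted within the letters, the comparison of the animals gave medians of opposite sign over the 37 genes. Over all 13956 genes tested, the medians were 0.020 among L-named and 0.0025 among R-named wounds. Of those genes, 7262 and 7021 were above 0. Among L-named wounds (3 diabetic, 2 non-diabetic) 7 of the 37 log2 fold changes were above 0 with a median of -0.32, and CPQ was the only gene called, where 0.0645% of all genes were called, 0.0287% lower (limma). Among R-named wounds (4 diabetic, 2 non-diabetic) 32 of 37 were above 0 with a median of 0.50, and 15 were called higher and 2 lower, where 10.1% of all genes were called, 5.20% higher and 4.94% lower. The genes called higher were the proteases TPP1, CTSF, LGMN, CTSB and CTSA, the hydrolases MAN2B1, IDUA, SMPD1, GAA, ARSA, GUSB and HEXA, the cofactor GM2A, LAMP1 and GRN. The 2 called lower were CPQ and LAMP2. MAN2B1, for example, changed by 1.05 in R-named wounds (adjusted p = 0.0177, limma) and stood at -0.48 in L-named wounds, and GAA changed by 0.81 (adjusted p = 0.0306, limma) and stood at -1.35. LAMP2 changed by -1.04 (adjusted p = 0.0087, limma) among R-named wounds and stood at 0.13 among L-named wounds. CPQ fell in both, by 2.69 on the log2 scale among L-named wounds (adjusted p = 0.0192, limma) and by 2.24 among R-named wounds (adjusted p = 0.00803, limma).

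**Figure D5:**
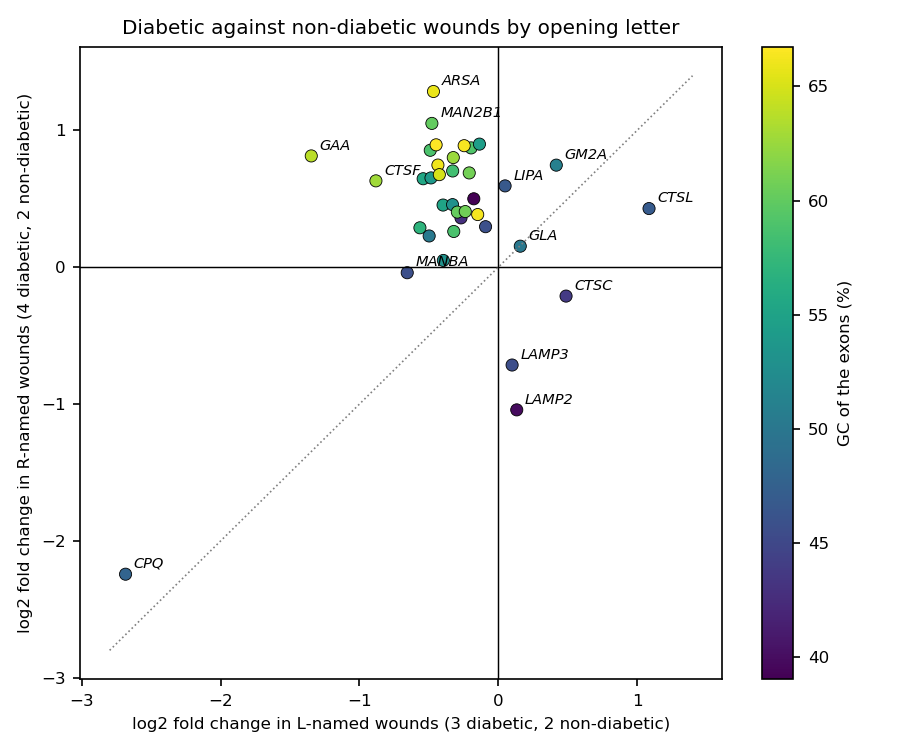
Log2 fold change, diabetic minus non-diabetic, of each of the 37 lysosomal genes among L-named wounds (horizontal) and R-named wounds (vertical), coloured by the GC content of the exons in percent, with equal changes on the dotted line. Most genes lie in the upper left, with medians of -0.32 and 0.50, GM2A, CTSL, LIPA and GLA are above 0 on both axes, and CPQ is far below 0 on both.

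After the data were seen, the difference between the letters was itself tested as an interaction in limma. It passed an adjusted p of 0.05 for 9 of the 37 genes (24.3%), where 6.46% of all genes passed. The fold change was higher among R-named wounds for CTSA, CTSF, HEXA, GAA, GUSB, MAN2B1, ARSA and LAMP1, by 0.90 to 2.16 on the log2 scale, and lower for LAMP2, by 1.18. With any 1 wound other than diabetic replicate 3 left out, no lysosomal gene passed, and at most 18 of all genes did. Without diabetic replicate 3, 24 lysosomal genes passed, where 3359 of all genes passed against 901 with every wound. The median difference over the 37 genes stayed between 0.65 and 0.96 throughout. Of the 2 wounds that stood apart, diabetic replicate 4 was R-named and non-diabetic replicate 1 was L-named. Each was thus among the wounds of its animal with the higher summed levels. Without both, the median difference was 0.65, and 33 of the 37 differences were above 0. The 15 genes called higher among R-named wounds fell to 0 without diabetic replicate 7, without non-diabetic replicate 3 or without non-diabetic replicate 4, where 0.774%, 0.0358% and 0.115% of all genes were called in either direction. The median log2 fold change of the 37 genes among R-named wounds was then 0.45, 0.38 and 0.64, against 0.50 with every wound. The call of CPQ among R-named wounds was lost without either non-diabetic wound (adjusted p = 0.0792 and 0.0661, limma), with the log2 fold change at -2.30 and -2.19. Among L-named wounds it was lost without diabetic replicate 1, 2 or 3, with the log2 fold change at -2.65, -2.69 and -2.72. In each of these fits 0% of all genes were called. Without non-diabetic replicate 1, which leaves 1 non-diabetic wound, the log2 fold change of CPQ was -2.61.

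How the levels depended on the GC content of the exons differed with the same letters. Across the 37 genes, whose median GC content was 55.5% against 52.2% over all genes, Spearman's rho between GC content and the difference of R-named minus L-named wounds was 0.76 in the diabetic and -0.63 in the non-diabetic animal, and 0.42 and -0.36 across all genes. These are correlations across genes of the same libraries, which are not independent replicates. LAMP2 and CTSS had the lowest GC content of the 37 genes (39.8% and 39.0%), and IDUA, CTSZ and TFEB the highest (66.7%, 66.5% and 66.3%). After the trend on GC content was removed from each library, an alternative chosen after seeing the data, the median difference between the letters was 0.72 against 0.79 before. No lysosomal gene then passed the test of the difference (0.473% of all genes did), and 2 were called higher among R-named wounds, MAN2B1 and HEXA, and 2 lower, CPQ (-2.11, adjusted p = 0.0121, limma) and LAMP2 (-0.81, adjusted p = 0.0193, limma), where 2.89% of all genes were called in either direction. Among L-named wounds CPQ was the only one, where 0.0215% of all genes were called. With all wounds, the GC correction left CPQ called (-2.38, adjusted p = 1.34e-05, limma) and no other lysosomal gene. What part GC content has in the difference between the letters was not tested further.

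Summed macrophage markers were also highest among R-named diabetic and L-named non-diabetic wounds, but here the ranges of the letters overlapped in both animals. The 12 markers summed to 776 to 1105 FPKM in L-named and 1034 to 1772 FPKM in R-named diabetic wounds, and to 781 and 945 FPKM in L-named and 505 and 787 FPKM in R-named non-diabetic wounds. In the comparison of the groups 3 of the 12 were called higher, CD14, MRC1 and MARCO, with log2 fold changes of 0.76, 0.73 and 1.80 (adjusted p = 0.039, 0.00585 and 0.00419, limma), and 11 of 12 were above 0 with a median of 0.62. Of all 13956 genes tested, 1.35% were called higher and 7302 were above 0, with a median of 0.014. The call of CD14 was lost when any of 9 wounds was left out. The abundant complement genes C1QB and C1QC stood at 0.68 and 0.66 and were not called (adjusted p = 0.223 and 0.159, limma). None of the 12 markers was at 0 in any wound. Fibroblast markers, summed, ran from 19424 to 37709 FPKM in L-named and from 47203 to 53409 FPKM in R-named diabetic wounds, and from 46123 to 66407 and 35225 to 36121 FPKM in the non-diabetic wounds, led by COL3A1 and COL1A1. The part of these cell types in the levels of the lysosomal genes was not tested.

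The rest of the lysosomal machinery was read from 7 further lists with 117 genes found, of which 115 passed the filter and were tested. Of these, 1 was called higher and 1 lower, with a median log2 fold change of 0.036, where 3.00% of all genes were called. Among 28 other lysosomal hydrolases, of which 26 were tested, none was called. CTSK, the collagen-degrading cathepsin of fibroblasts and osteoclasts and the most abundant of them, had 142 ± 33.3 FPKM (SD, n = 7) and 233 ± 71.6 FPKM (SD, n = 4), a log2 fold change of -0.70 (adjusted p = 0.101, limma), and the carboxypeptidase gene SCPEP1 had 159 and 167 FPKM. Of the cathepsin inhibitors, CST3 (cystatin C) had 2046 and 2045 FPKM and CSTB (cystatin B) 224 and 267 FPKM, neither called.

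In the V-ATPase, 1 of 17 subunits was called, ATP6V0D2, an alternative subunit known from osteoclasts and macrophages. It had 0.0240, 0.106 and 0.757 FPKM at the lowest, median and highest diabetic wound and 2.35, 3.44, 0.623 and 1.66 FPKM in the non-diabetic wounds, so that diabetic replicate 4 overlapped with non-diabetic replicate 3. The log2 fold change was -1.80 (SE 0.33, adjusted p = 0.0135, limma), and the call was lost without non-diabetic replicate 1. It passed the filter on low values only through the non-diabetic wounds, since 1 diabetic wound alone was over 0.5 FPKM. The abundant subunits ATP6V0C and ATP6V0B stood at 0.33 and -0.03. RRAGD, a Rag GTPase that recruits mTORC1 to the lysosome, was called higher, with 0.388 to 1.07 FPKM in diabetic wounds, 0.203 to 0.308 FPKM in the others and a change of 0.70 on the log2 scale (SE 0.15, adjusted p = 0.0252, limma). It passed the filter on low values only through the diabetic wounds, and the call was lost when any of 7 wounds was left out. The most abundant genes of the other lists, NPC2 and LAPTM4A (lysosomal transporters and membrane proteins), M6PR and SUMF1 (enzyme sorting and sulfatase activation), LAMTOR1 and LAMTOR2 (mTORC1 regulators), and GABARAP and SQSTM1 (autophagy), had log2 fold changes between -0.19 and 0.17, and none was called.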

How the data were processed

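Poly(A) RNA of 11 wounds was sequenced as strand-specific libraries. Per the labels and the study's methods, the authors used fastp for trimming, HISAT2 (version 2.2.1) for mapping to Sscrofa11.1, StringTie (version 2.2.3) for assembly and featureCounts (version 2.0.6) for counting. Whether the counting used strand is not given in the sources used here. The authors deposited FPKM values, which are per gene length and per a number for each library that was not simply its reads on genes. In every library, 100% of the FPKM values were whole multiples of 1 read, to within 0.05 reads, and reads recovered in this way entered only an alternative. The gene coordinates equalled those of the RefSeq annotation of Sscrofa11.1 for all 30335 identifiers found in it.

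Groups were taken from the labels. Genes with at least 0.5 FPKM in at least 4 of the 11 libraries (13956) entered limma (lmFit, then eBayes with a trend) as log2(FPKM + 0.5), and p-values were adjusted by Benjamini-Hochberg. On this scale fold changes understate those of low genes. Because the deposited unit is FPKM and not counts, limma on the log2 scale was the main test. All lysosomal genes found passed the filter, so the exact test planned for genes under it was not needed. The fit was tested on simulated data with independent noise for each gene and wound. These data held no shift shared by the genes of a wound and no effect of the animal, so they cannot speak to either. The lysosomal genes, the 7 lists of related genes and the marker lists were chosen with earlier results of these data known, so no test was made over a list. Named are all lysosomal genes, and from each other list the called genes and the 2 with the highest mean FPKM. Alternatives changed the pseudocount, filter, scaling, spread estimate, library weights, a replicate block, the opening letter of the library name as covariate, the wounds included and voom on recovered reads. The GC correction, the fits within letters and the interaction test between the letters were added after seeing the data. ARSG and CTBS did not pass the filter, and CSTA, VMP1, KRT14 and MB were not analysed here. PIP4P1 was matched as TMEM55B. Protein sequences were not analysed here. Tools were limma 3.58.1 in R 4.3.3, and matplotlib 3.10.9, pandas 2.3.3, numpy 2.4.6 and SciPy 1.17.1 in Python 3.11.15.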

Additional observations from a re-analysis of the deposited data

Results flagged for a closer look

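Over 74 groups of wounds examined, 1 for each lysosomal gene and animal, 3 wounds stood far from the rest of their group by Dixon's criterion, which by chance marks about 1 group in 20. CTSD in non-diabetic replicate 3 had 176.6 FPKM, against 335.9 to 347.1 FPKM in the other 3 wounds. LIPA in the same wound had 48.22 FPKM, against 63.22 to 65.59 FPKM. LAMP3 in diabetic replicate 2 had 1.413 FPKM, against 0.131 to 0.641 FPKM in the other 6 wounds.

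The log2 fold change of 9 lysosomal genes differed between R-named and L-named wounds by the interaction test in limma, which 6.46% of all genes passed. This test was added after seeing the data. With any 1 wound other than diabetic replicate 3 left out, none of the 37 lysosomal genes passed it. R-named minus L-named, the difference was 1.345 for CTSA (adjusted p = 0.0418, interaction in limma), 1.513 for CTSF (adjusted p = 0.0421), 1.138 for HEXA (adjusted p = 0.0418), 2.161 for GAA (adjusted p = 0.0410), 1.032 for GUSB (adjusted p = 0.0425), 1.53 for MAN2B1 (adjusted p = 0.0410), 1.752 for ARSA (adjusted p = 0.0418), 0.8985 for LAMP1 (adjusted p = 0.0489) and -1.176 for LAMP2 (adjusted p = 0.0418). After removal of the GC trend the same differences were between 0.52 and 1.73 for the first 8 of these genes and -0.82 for LAMP2, and none passed. The dependence of levels on the GC content of the exons differed with the same letters, as did the summed fibroblast markers. Summed macrophage markers were highest among R-named diabetic and L-named non-diabetic wounds, but the ranges of the letters overlapped in both animals. The part of GC content and of these cell types in the difference was not tested.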

How the results depend on the processing

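Of 25 alternatives, 24 were planned. CPQ was called lower in all 25, with log2 fold changes of -2.62 to -2.29 and adjusted p-values of 3.49e-07 to 0.0116 (limma). No other lysosomal gene was called in more than 2: GM2A without diabetic replicate 1 and with library weights (0.64, adjusted p = 0.0142, limma, within 0.0131 to 0.567 over all alternatives), CTSL without non-diabetic replicate 4 (adjusted p from 0.0195 to 0.653 over all alternatives) and LAMP2 with library weights (-0.67, adjusted p = 0.0406, limma, the lowest of a range up to 0.915). The sign of the log2 fold change held in every alternative for 24 of the 37 genes. All genes kept a median between -0.050 and 0.023, and the number of lysosomal genes above 0 ranged from 20 to 30. The fits within the letters are not among these 25, and gave 7 of 37 above 0 for L-named and 32 for R-named wounds, or 7 and 33 with the GC correction. Over all 13956 genes, 7262 and 7021 were above 0, or 7418 and 6819 with the GC correction. The depth limits LAMP3 most, which a filter at 1 FPKM removed. That every group is 1 animal limits all results, and no setting changes it.

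Library weights gave 406 genes called higher and 416 lower over all genes, and 1 higher and 2 lower among the lysosomal genes. Without the 2 wounds that stood apart 112 genes were called higher and 100 lower. In the 7 further lists, 0 genes were called higher at a pseudocount of 1, with a filter at 1 FPKM and with voom on recovered reads. In the same lists 0 were called lower with the filter at 1 FPKM, and 2 with quantile normalisation, with the same sum per library and with voom. The filter at 1 FPKM removed ATP6V0D2 and RRAGD from the test, and the cause of the other changes was not tested.

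Signs turned as follows, none with a call. NEU1 was at 9.7e-05 with a pseudocount of 1, 0.0020 with voom and 0.107 with library weights. Quantile normalisation gave -0.00079 for CTSC, -0.133 for CTSH, -0.0152 for GLB1, -0.0559 for ASAH1 and -0.114 for CD63, and the same sum per library -0.0121 for CTSH and -0.0103 for ASAH1. Library weights gave -0.0135 for CTSC, 0.163 for CTSF and 0.146 for GAA, and the GC correction -0.0062 for CD63.

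Replicate numbers are shared by the groups, but the wounds of a number come from different animals, and their deviations from the group means correlated at -0.267, 0.215, 0.0678 and -0.484, so the numbers do not pair them. With a replicate block 11 genes were called higher and 5 lower, CPQ among them, and in the 7 further lists 0 higher and 0 lower. Signs turned for the median of the hydrolases (-0.0025) and for CTSD (-0.0581), CTSH (-0.0577), TPP1 (-0.0555), HEXA (-0.0738), GLB1 (-0.0025), SMPD1 (-0.0485) and CD63 (-0.0325).

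With each wound left out in turn, 110 to 236 genes were called higher and 99 to 246 lower over all genes, with the fewest lower without non-diabetic replicate 1 and the fewest higher both there and without non-diabetic replicate 3. Lysosomal genes called higher numbered 0 to 1, and lower 1 to 1, and in the 7 further lists 0 to 1 in each direction. The median of the proteases ranged from 0.050 to 0.28, that of the hydrolases from 0.022 to 0.22, and their difference from 0.028 to 0.17, the lowest medians without non-diabetic replicate 3. Ranges across 0 were found for ARSB (-0.224 to 0.00064), ASAH1 (-0.0548 to 0.181), CD63 (-0.0560 to 0.197), CTSC (-0.0171 to 0.206), CTSD (-0.0305 to 0.323), CTSF (-0.161 to 0.0911), CTSH (-0.0853 to 0.156), GAA (-0.381 to 0.0858), NEU1 (-0.0738 to 0.128) and TPP1 (-0.0088 to 0.250).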

Other observations

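The genes next to CPQ on chromosome 4 were looked at after its values had been seen. LAPTM4B, MTDH, TSPYL5, SDC2 and PTDSS1 had log2 fold changes of 0.18, 0.08, -0.27, -0.23 and 0.07, and the non-coding gene LOC106510014, which lies within the span of CPQ on the other strand, -0.30. None of these 6 was called (limma), and in each the groups overlapped.

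LOC110259405, a long non-coding RNA that overlaps the start of ARSB on the opposite strand of chromosome 2, was also chosen after its values had been seen. It had 0.562 to 1.54 FPKM in the diabetic wounds and 0.299, 0.269, 0.0777 and 0.0579 FPKM in the non-diabetic wounds, without overlap. The log2 fold change was 1.17 (SE 0.20, adjusted p = 0.00938, limma), while ARSB itself stood at -0.12. The RNA passed the filter on low values only through the diabetic wounds, the group where it was high. It had 5 to 109 reads per wound, and whether counting used strand is not given in the sources used here, so reads of ARSB and of this RNA may not be told apart.

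GALC, the lysosomal galactosylceramidase, was the only gene of the further lysosomal lists besides RRAGD whose groups did not overlap, with 3.97 to 4.74 FPKM in the diabetic wounds and 2.90, 3.46, 2.74 and 3.67 FPKM in the non-diabetic wounds. These were 2 of 115 genes tested in those lists, where 5.65% of all genes did not overlap (2.69% with the diabetic wounds higher). In limma the change of GALC, 0.38 on the log2 scale (adjusted p = 0.047), passed the adjusted p and not the size set for a call.

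Of the markers of other cell types, no endothelial gene (PECAM1 and CDH5 the most abundant, with log2 fold changes of 0.02 and -0.03) and no neutrophil gene (S100A12 and S100A9) was called in limma. Among keratinocyte markers (KRT5 and KRT1 the most abundant) 1 was called higher, KRT15, and among adipocyte markers (FABP4 and ADIPOQ) 1 was called lower, LEP, which passed the filter only through the non-diabetic wounds. Of all genes tested, 1.35% were called higher and 1.66% lower. Of the skeletal muscle markers (ACTA1 and MYL1), 1 passed the filter, MYL1, and was not called.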
